A study of Mus musculus with 15 samples.

Results

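Lin28a, Lin28b, Igf2bp1, Igf2bp2, Igf2bp3, Hmga1, Hmga2 and Trim71 are genes that mammalian embryos use during growth and that most adult organs switch down. The 8 genes were chosen by symbol, out of 44788 symbols in the files, and their FPKM (fragments counted per transcript, scaled to its length and to the fragments mapped in the library) was followed through the development of the mouse stomach. RNA of whole stomachs of C57BL/6 mice was sequenced at 15 timepoints, 7 embryonic (E12.5 to E18.5) and 8 after birth (D1, D3 and D5 in days, W1, W2, W3, W6 and W8 in weeks), with 1 transcriptome per timepoint. No mouse carried a treatment or an introduced allele, and the labels give neither sex nor animal number. The study's reporting summary says that stomachs of several embryos were pooled per replicate up to E17.5 and single stomachs used after E18.5. It adds that young up to W2 were not sexed and that older mice were male. How many stomachs went into each RNA library is not stated. The study sorts the transcriptomes into phases, Ph1 (E12.5 to E17.5, 6 timepoints), Ph2 (E18.5 to W2, 6 timepoints) and Ph3 (W3 to W8, 3 timepoints). Because these phases were drawn from the same transcriptomes, slopes over age were tested as well.

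The 8 genes belong to 1 well-known circuit of fetal growth. Lin28a and Lin28b are RNA-binding proteins that hold back the maturation of the let-7 microRNAs, and let-7 in turn binds the 3′ untranslated regions (3′ UTRs) of many fetal mRNAs and lowers their output. Among those known let-7 targets are the Lin28 genes themselves, the chromatin proteins Hmga1 and Hmga2, the mRNA-binding proteins Igf2bp1 to Igf2bp3, and Trim71 (also called Lin41), a ubiquitin ligase that represses mRNAs. Hmga proteins bind the minor groove of AT-rich DNA and open chromatin. Igf2bp proteins bind mRNAs such as that of Igf2, and protect or transport some of the mRNAs they bind. In the gut, Lin28b and the Igf2bp proteins are best known for the fetal and neonatal epithelium and for cancers in which they return.

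The sequence that joins these genes is the let-7 seed, bases 2 to 8 of the mature microRNA, shown in capitals in 4 members of the family (RefSeq, GRCm38.p6).
let-7a-5p: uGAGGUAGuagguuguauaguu
let-7g-5p: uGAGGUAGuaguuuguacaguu
let-7i-5p: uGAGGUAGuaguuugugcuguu
miR-98-5p: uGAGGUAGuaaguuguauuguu
Of 11 mature sequences of the family, 10 shared the seed GAGGUAG, and let-7j had GAGGUAU. Lin28 proteins bind the hairpin precursor near a GGAG motif between its arms, which the next 3 hairpins show in capitals where they hold it.
pre-let-7g: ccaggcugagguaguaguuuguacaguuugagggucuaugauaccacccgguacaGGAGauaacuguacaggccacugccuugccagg
pre-let-7i: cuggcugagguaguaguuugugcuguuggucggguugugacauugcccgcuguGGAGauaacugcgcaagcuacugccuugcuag
pre-let-7b: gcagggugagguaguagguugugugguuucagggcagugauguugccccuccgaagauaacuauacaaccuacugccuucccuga
The motif GGAG stood between the arms of 9 of 12 hairpins of the family, and not of those of let-7b, let-7c-2 and miR-98. Over all 1005 mouse hairpins of the table, 44.5% held GGAG anywhere. The hairpins lie at chr9:106178840-106178927 (let-7g, plus strand), chr10:122985640-122985724 (let-7i, minus strand) and chr15:85707319-85707403 (let-7b, plus strand).

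Each of the 8 genes held at least 1 match to the let-7 seed, CTACCTC, in its longest 3′ UTR (GENCODE M21 on GRCm38, transcript strand only), where 8.96% of 20971 genes held 1. The 8-base form CTACCTCA, which contains the first motif, was found in 7 of the 8 (Hmga1 had only the shorter form) and in 3.02% of all 3′ UTRs. The genes are known let-7 targets, so the count is no independent evidence. The first match of each gene is printed 5′ to 3′ on the strand of the transcript, with the match in capitals.
Lin28a (chr4:134005180-134005205, minus strand): cctgttgaaCTACCTCAtttttgccg
Lin28b (chr10:45381013-45381038, minus strand): gcgggaagtCTACCTCAtgcaagcac
Igf2bp1 (chr11:95961769-95961794, minus strand): cgaagtaaaCTACCTCAaggtgtgaa
Igf2bp2 (chr16:22059464-22059489, minus strand): aaataaaagCTACCTCAggtgttttt
Igf2bp3 (chr6:49086778-49086803, minus strand): tttactcaaCTACCTCAggtattcag
Hmga1 (chr17:27563283-27563307, plus strand): gttcacaaaCTACCTCtggacggtt
Hmga2 (chr10:120364215-120364240, minus strand): attcaatttCTACCTCAgcatcagtt
Trim71 (chr9:114512463-114512488, minus strand): gcctaagtcCTACCTCAgcttaaatt
Lin28b, Igf2bp1, Hmga2 and Trim71 held 4 matches each, Lin28a 2, and Igf2bp2, Igf2bp3 and Hmga1 1 each. Long 3′ UTRs hold more matches by length alone: of the 2226 3′ UTRs within 20% of the length of that of Hmga2 (3014 bases), 15.6% held a match and 0.135% held as many as 4. The corresponding shares with 4 or more were 0.238% for Lin28b, 0.357% for Igf2bp1 and 0.508% for Trim71. The single matches of Igf2bp2, Igf2bp3 and Hmga1 were shared by 12.1%, 13.3% and 7.95% of the 3′ UTRs of like length. The second pair of matches of Trim71 lies beyond the end of its entry in the files, and the other 19 of 21 matches lie within the entries. A match is a run of letters, and binding was not measured.

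**Figure D1:**
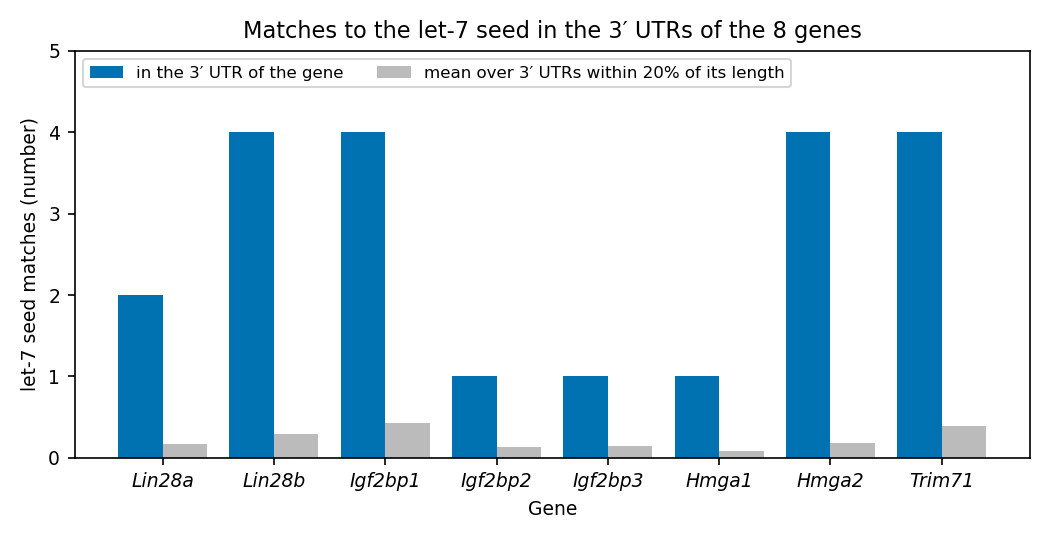
Number of matches to the let-7 seed in the longest 3′ UTR of each of the 8 genes (blue bars) and the mean number in all 3′ UTRs within 20% of that length (grey bars). Lin28b, Igf2bp1, Hmga2 and Trim71 reach 4 matches, against means between 0.184 and 0.433.

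The precursors of let-7 themselves could not be followed, since the 14 let-7 entries of the files are listed at 0 at every timepoint and the libraries were made from fragmented mRNA.

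FPKM of each of the 8 genes was highest within the first 3 days sampled and then fell, but at different times. In whole stomachs, fewer cells of a type and less RNA per cell cannot be told apart. Hmga2 and Lin28b had fallen below 50% of their E12.5 level for good by E14.5 and E13.5, Igf2bp1 by E15.5, and Igf2bp2, Igf2bp3 and Hmga1 by E18.5. Trim71 was at 38.3% at E17.5 and 55.2% at D1, and stayed below 50% from D3 on. From E12.5 to E18.5 FPKM fell 17.8-fold for Hmga2 and 14.6-fold for Lin28b, 7.42-fold for Igf2bp1, and between 2.08-fold and 2.94-fold for Trim71, Igf2bp2, Igf2bp3 and Hmga1. At E12.5 the order of the levels was Hmga1, Hmga2, Igf2bp2, Igf2bp3, Igf2bp1, Lin28b, Trim71 and Lin28a, where the confidence bounds of Lin28b and Trim71 overlapped. At W8, Hmga1 (29.7 FPKM) and Igf2bp2 (7.23) were followed by Hmga2 (1.23) and Igf2bp3 (0.386), and the other 4 genes lay at 0.0317 FPKM or less.

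**Figure D2:**
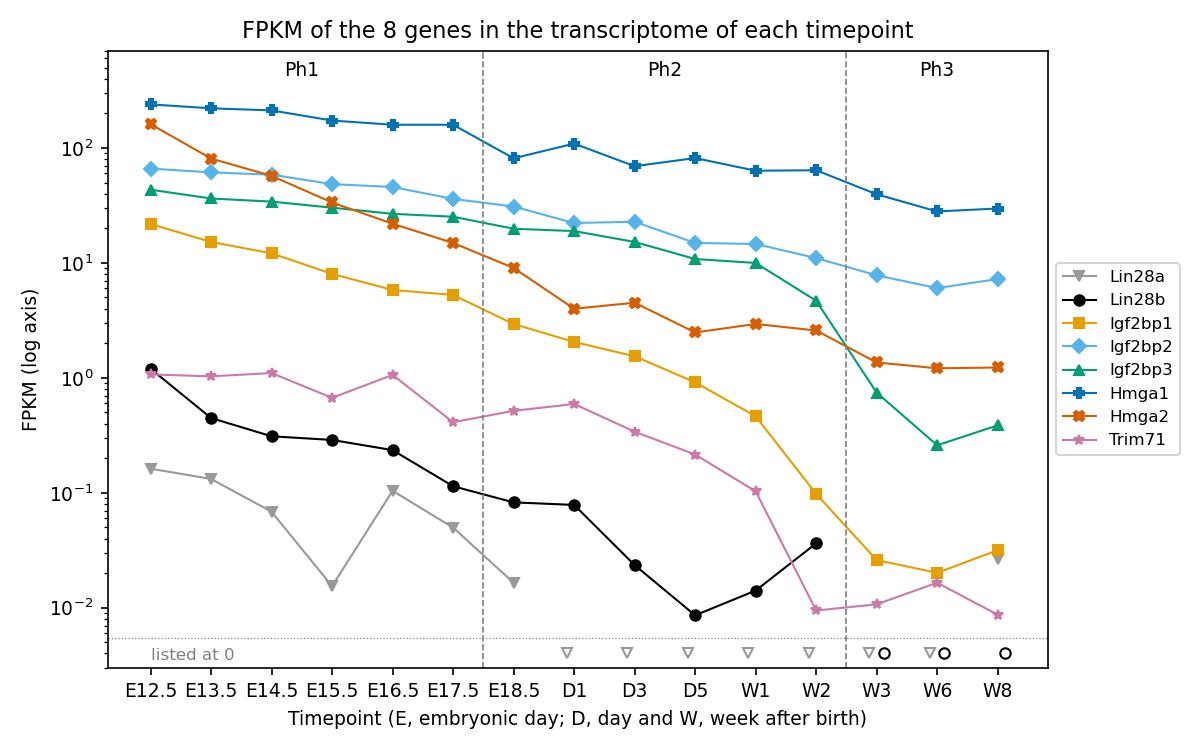
FPKM of the 8 genes (lines, logarithmic y axis) at the 15 timepoints (x axis), with 1 transcriptome per point. Open symbols at the bottom are values listed at 0, and dashed lines part Ph1, Ph2 and Ph3. Hmga2 runs from 161 at E12.5 to 1.23 at W8 and crosses below Igf2bp2 at E14.5 and Igf2bp3 at E16.5, and Igf2bp3 drops steeply between W2 and W3.

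Lin28b, the Lin28 paralog known from fetal epithelium (chr10:45376617-45487597), was a low transcript that had fallen to 6.87% of its E12.5 level at E18.5. Its FPKM was 1.20 at E12.5, 0.447 at E13.5, 0.310 at E14.5, 0.288 at E15.5, 0.235 at E16.5, 0.114 at E17.5 and 0.0825 at E18.5. After birth it was 0.0784 at D1, between 0.00859 and 0.0363 from D3 to W2, and listed at 0 at W3, W6 and W8. The 6 Ph1 values lay above every later one, and 1 of the 14 steps between consecutive timepoints, from E12.5 to E13.5, went beyond the files' confidence bounds. If those bounds are Poisson, about 123 fragments stood behind the E12.5 value and 10.2 or fewer behind each value from E17.5 on. Whether Lin28b RNA was absent at W3 to W8 or only below detection at this depth therefore cannot be told apart.

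Lin28a (chr4:134003330-134018816), the paralog of embryonic stem cells, never reached 1 FPKM. Its highest values were 0.162 at E12.5 and 0.132 at E13.5, its values from E14.5 to E18.5 lay between 0.0154 and 0.104, and it was listed at 0 at 7 of the 8 timepoints after birth, with 0.0266 at W8. At most 9.40 fragments stood behind any of these values. No step between neighbouring timepoints went beyond the confidence bounds, and Ph1 overlapped the later timepoints.

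Trim71 (chr9:114511268-114564369), itself a let-7 target and in turn a repressor of mRNAs, varied within the embryo and was the last of the 8 genes to stay below 50% of its E12.5 level, through its value at D1. Its FPKM was 1.07 at E12.5, 1.03 at E13.5, 1.10 at E14.5, 0.670 at E15.5, 1.06 at E16.5, 0.411 at E17.5 and 0.516 at E18.5. After birth it was 0.592 at D1, 0.340 at D3, 0.215 at D5, 0.103 at W1 and between 0.00869 and 0.0165 from W2 to W8. D1 still lay above E17.5, so Ph1 and the later timepoints overlapped, and from W2 on about 1.99 fragments or fewer stood behind each value.

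Hmga2 (chr10:120361275-120476935), the Hmga protein of embryonic cells, had the steepest embryonic course of the 8 genes. Its FPKM was 161 at E12.5, 80.8 at E13.5, 57.1 at E14.5, 33.5 at E15.5, 21.9 at E16.5, 14.9 at E17.5 and 9.03 at E18.5. It was 3.99 at D1, 4.50 at D3, 2.48 at D5, 2.94 at W1 and 2.58 at W2, and 1.36, 1.21 and 1.23 at W3, W6 and W8. Every embryonic step was downward and beyond the confidence bounds, and the level was below 10% of E12.5 from E17.5 on. Hmga2 stayed at 1 FPKM or more at all 15 timepoints, with 93.9 to 103 fragments behind each Ph3 value. A pseudogene copy, Hmga2-ps1, stayed between 0.0431 and 0.882 FPKM, which was under 2% of Hmga2 in the embryo but reached 49.6% of it at W3, so the low late values of Hmga2 are the less certain ones if reads were shared.

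Hmga1, the paralog found more widely in dividing cells, fell less and later. The files hold 2 entries under this symbol, on chr17:27556574-27563672 and on an alternate scaffold, with near-equal values, so the sum is about double the chromosome 17 entry. The summed FPKM was 239 at E12.5, 221 at E13.5, 212 at E14.5, 173 at E15.5, 159 at E16.5, 159 at E17.5 and 81.2 at E18.5. It was 109 at D1, 69.3 at D3, 81.6 at D5, 63.3 at W1 and 63.9 at W2, and 39.5, 28.0 and 29.7 at W3, W6 and W8. The lowest Ph1 value was above the highest later one, and the steps to D1 and D5 were upward beyond the bounds. In the chromosome 17 entry the level at E12.5 was 120 FPKM, below that of Hmga2, so which of the paralogs was higher at E12.5 depends on the entry; from E13.5 on Hmga1 was higher either way.

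Igf2bp1 (chr11:95957163-96005944), which binds Igf2, Myc and Actb mRNA, fell at nearly every timepoint. Its FPKM was 21.8 at E12.5, 15.2 at E13.5, 12.1 at E14.5, 8.02 at E15.5, 5.81 at E16.5, 5.26 at E17.5 and 2.94 at E18.5. It was 2.05 at D1, 1.54 at D3, 0.913 at D5, 0.463 at W1 and 0.0977 at W2, and 0.0260, 0.0201 and 0.0317 at W3, W6 and W8. Of 14 steps, 13 were downward and 10 of them went beyond the confidence bounds. The fall from E12.5 to W8 was 687-fold, with 4.87 fragments or fewer behind each Ph3 value.

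Igf2bp3 (chr6:49085218-49215525), a paralog that is off in most adult tissues, declined slowly in the embryo and then dropped at weaning age. Its FPKM was 43.3 at E12.5, 36.3 at E13.5, 34.1 at E14.5, 30.2 at E15.5, 26.7 at E16.5, 25.2 at E17.5 and 19.8 at E18.5. It was 18.9 at D1, 15.2 at D3, 10.8 at D5, 9.98 at W1 and 4.68 at W2, and 0.743, 0.259 and 0.386 at W3, W6 and W8. At W2 it still held 10.8% of its E12.5 level, and at W3 1.72%.

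Igf2bp2 (chr16:22059009-22163299), the paralog that adult tissues keep, fell least of the family. Its FPKM was 66.1 at E12.5, 61.2 at E13.5, 58.5 at E14.5, 48.4 at E15.5, 45.7 at E16.5, 36.0 at E17.5 and 30.9 at E18.5. It was 22.2 at D1, 22.8 at D3, 14.9 at D5, 14.6 at W1 and 11.0 at W2, and 7.79, 6.03 and 7.23 at W3, W6 and W8. Of the 8 genes it and Hmga1 were the ones that stayed above 5 FPKM throughout.

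The make-up of the Igf2bp family therefore changed with age, gradually for Igf2bp1 and mainly between W1 and W3 for Igf2bp2 and Igf2bp3. At E12.5 Igf2bp1, Igf2bp2 and Igf2bp3 held 16.6%, 50.4% and 33.0% of their summed FPKM of 131. By D1 the share of Igf2bp1 was 4.75% and that of Igf2bp3 43.8%. At W8 Igf2bp2 held 94.5% of a sum of 7.65, Igf2bp3 5.05% and Igf2bp1 0.415%. The share of Igf2bp2 stayed between 50.4% and 58.4% from E12.5 to W1, was 69.8% at W2 and lay between 91.0% and 95.6% from W3 on.

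**Figure D3:**
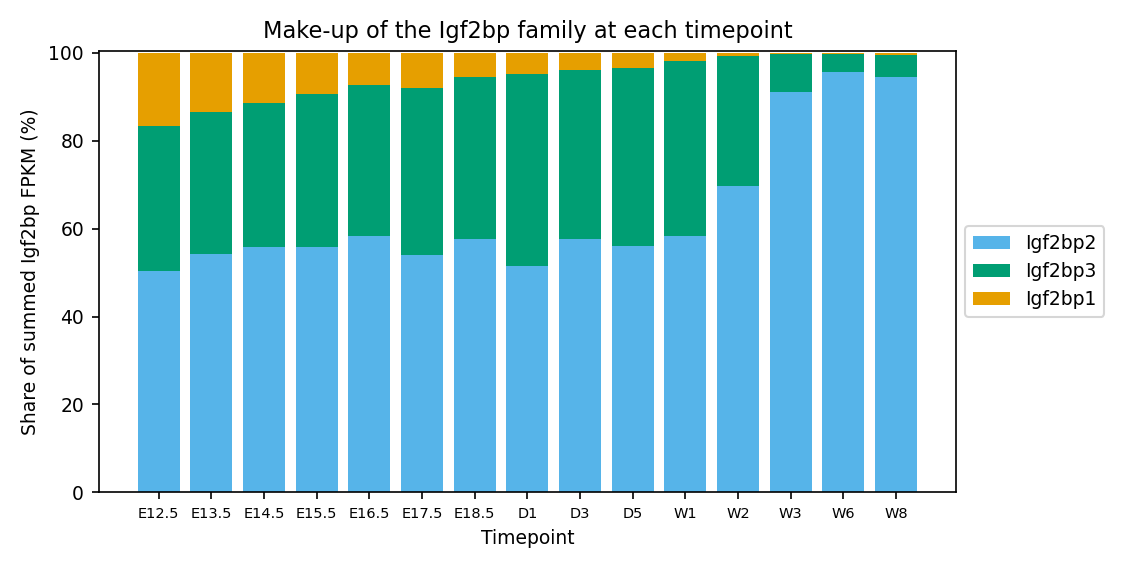
Share of the summed Igf2bp FPKM held by each paralog (stacked bars, percent, y axis) at the 15 timepoints (x axis). Igf2bp1 shrinks from 16.6% at E12.5 to 0.619% at W2, and Igf2bp2 takes 91.0% or more from W3 on.

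Whether paralogs took different courses was tested in 5 pairs on the log2 ratio of FPKM + 1, with exact two-sided permutation tests and Benjamini-Hochberg adjustment over the pairs. Over the 7 embryonic timepoints the ratio Hmga2/Hmga1 fell by 0.43 on the log2 scale per day (adjusted p = 0.00198, all orders of the timepoints) and in the same exact test Igf2bp1/Igf2bp2 fell by 0.22 and Igf2bp1/Igf2bp3 by 0.24 per day (adjusted p = 0.00198 each). Lin28b/Lin28a fell by 0.11 per day (adjusted p = 0.00298, exact permutation), but on the scale log2(FPKM + 0.01), which weighs low values more, its slope was -0.19 with an adjusted p of 0.398. Without E12.5 that slope was -0.06 per day on log2(FPKM + 1), still called. The slope of Igf2bp3/Igf2bp2 was 0.02 per day and was not called (adjusted p = 0.435, exact permutation): its log2 ratio stayed between -0.76 and -0.50 at the 7 embryonic timepoints. After birth that ratio was -0.22 at D1, -1.08 at W2 and between -2.57 and -2.34 from W3 to W8, a description, since no test of this step was planned.

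Between Ph1 and the 9 later timepoints the exact permutation test over all splits of the timepoints called a lower ratio for Hmga2/Hmga1 (by 1.89 on the log2 scale), Igf2bp1/Igf2bp2 (by 0.86) and Lin28b/Lin28a (by 0.33), each with an adjusted p of 0.000999. The ratios Igf2bp3/Igf2bp2 (-0.53, adjusted p = 0.279) and Igf2bp1/Igf2bp3 (-0.33, adjusted p = 0.485) were not called in this exact test. With a pseudocount of 0.1 the difference of Igf2bp1/Igf2bp3 was -1.38 with an adjusted p of 0.0112, and Lin28b/Lin28a was not called with a pseudocount of 0.01 (-1.02, adjusted p = 0.180). Without E12.5 the Lin28b/Lin28a difference was -0.22 and kept its call. Igf2bp1, Lin28a and Lin28b lie near 0 FPKM late in the series, where the pseudocount sets the ratio.

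Each gene by itself was lower after Ph1 than in Ph1. The exact two-sided permutation test gave an unadjusted p of 0.000200, the smallest that these splits gave, for Lin28b, Igf2bp1, Hmga1 and Hmga2. The exact p was 0.000400 for Igf2bp2, 0.000599 for Lin28a, 0.00120 for Trim71 and 0.00519 for Igf2bp3. Every Ph1 value lay above every later one in 6 genes (the exceptions were Lin28a and Trim71), a pattern that 21.5% of the 16902 genes with at least 1 FPKM at some timepoint also showed. Neighbouring timepoints are not independent samples, and with 1 transcriptome each the p-values measure the spread between timepoints.

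The 3 phases were then compared for all genes with limma on log2(FPKM + 1). Lin28a did not reach 1 FPKM and was left out of this fit. Lin28b and Trim71 passed the filter of 1 FPKM only through embryonic values, so the counts below are no support for a change of the group. Of the 7 genes tested, 7 differed across the phases in the moderated F test at an adjusted p under 0.01, as did 70.8% of all genes tested. Lin28b was at the threshold (adjusted p = 0.00990 by limma, and 0.0157 with median-ratio scaling).

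From Ph1 to Ph2, Hmga2 fell by 3.24 ± 0.46 (difference in log2(FPKM + 1) ± SE, limma, n = 6 and 6 timepoints, adjusted p = 0.000103). Among the 16902 genes this was the difference of rank 6 from the lowest. Igf2bp1 fell by 2.38 ± 0.34 (rank 18, limma adjusted p = 0.000109). These 2 genes thus stood at the far end of all genes in this contrast, with mean FPKM of 61.5 ± 54.3 and 11.4 ± 6.37 (SD) in Ph1 and 4.25 ± 2.47 and 1.33 ± 1.06 in Ph2. Igf2bp2 fell by 1.44 ± 0.21, Igf2bp3 by 1.34 ± 0.26, Hmga1 by 1.31 ± 0.15 and Trim71 by 0.55 ± 0.13, with limma adjusted p between 5.47e-05 and 0.00224. On the scale log2(FPKM + 0.1) the difference of Trim71, a low transcript, was -1.52. Lin28b had a difference of -0.42 ± 0.13 and was not called (limma adjusted p = 0.0107), while on the scale log2(FPKM + 0.1) it was -1.70 with an adjusted p of 0.000765. The count was 6 of 7 lower, where 35.1% of all genes tested were lower, and the median was -1.34 over the 7 and -0.22 over all genes.

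From Ph2 to Ph3, Igf2bp3 fell by 3.17 ± 0.32 (limma, n = 6 and 3 timepoints, adjusted p = 4.84e-05), rank 45 of 16902 from the lowest, from a mean of 13.2 ± 5.81 to 0.462 ± 0.251 FPKM (SD). Hmga1 fell by 1.23 ± 0.19 (limma adjusted p = 0.000209) and Igf2bp2 by 1.28 ± 0.26 (limma adjusted p = 0.00117). With median-ratio scaling the difference of Hmga1 was -0.63 (limma adjusted p = 0.00545), and Igf2bp2 was not called (-0.73, adjusted p = 0.0206). The mice of Ph3 were male and the younger ones were not sexed, so sex and age cannot be told apart in this contrast. The differences of Hmga2 (-1.11 ± 0.57, limma adjusted p = 0.104), Igf2bp1 (-1.05 ± 0.42, 0.0429), Trim71 (-0.34 ± 0.16, 0.0803) and Lin28b (-0.06 ± 0.16, 0.773) were not called. For Igf2bp1, near 0 FPKM in Ph3, log2(FPKM + 0.1) gave -3.04 with an adjusted p of 0.00247. The count was 3 of 7 lower and 37.4% of all genes tested were lower, so the share of the 7 was close to that of all genes, with a median of -1.11 against -0.43.

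**Figure D4:**
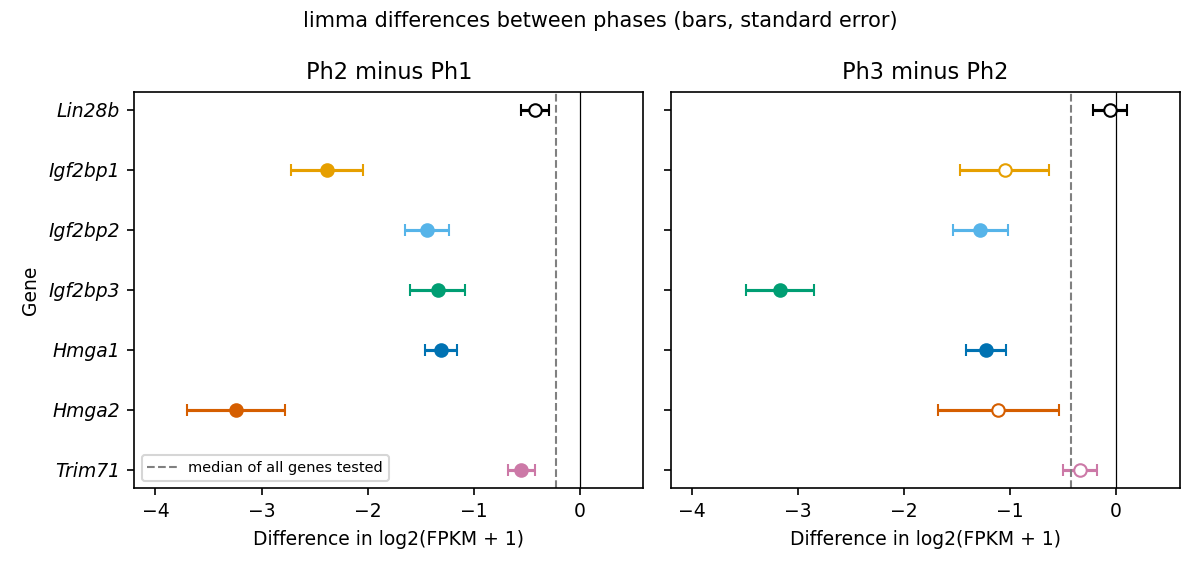
Differences between consecutive phases in log2(FPKM + 1) (x axis) for the 7 genes tested (y axis). Points are limma estimates, bars their standard errors, filled points have an adjusted p under 0.01 and the dashed line is the median of all 16902 genes. Hmga2 (-3.24) and Igf2bp1 (-2.38) lead on the left, Igf2bp3 (-3.17) on the right.

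The whole transcriptome shifted as well. The 10 highest genes took 11.2% of summed FPKM at E14.5 and 53.2% at W6. Median-ratio scaling, which centres the typical gene, moved the median of all genes from -0.22 to 0.00 in the first contrast and from -0.43 to -0.02 in the second. It changed the calls over all genes from 5935 lower and 2229 higher to 3158 and 3385 in the first contrast. In the second they went from 6328 lower and 577 higher to 1716 and 2585. Relative to the typical gene Hmga2 still fell by 2.96 and Igf2bp1 fell by 2.13 from Ph1 to Ph2, and Igf2bp3 fell by 2.96 from Ph2 to Ph3 (limma adjusted p of 0.000188, 0.000207 and 5.55e-05).

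Slopes over age do not use the phases. Over the 7 embryonic timepoints log2(FPKM + 1) of Hmga2 fell by 0.65 ± 0.02 per day (SE, limma adjusted p = 0.000143), rank 10 of 16902 from the lowest, and that of Igf2bp1 by 0.40 ± 0.02 (rank 72, adjusted p = 0.000158). Hmga1 fell by 0.21 ± 0.04, Igf2bp2 by 0.18 ± 0.02, Igf2bp3 by 0.17 ± 0.01 and Lin28b by 0.14 ± 0.03 per day, with limma adjusted p between 0.000341 and 0.00863. Trim71 had a slope of -0.09 ± 0.03 and was not called (limma adjusted p = 0.0417). The count was 6 of 7 falling, and 25.0% of all genes tested were falling. Lin28b lost its call without any 1 of the 7 timepoints (limma adjusted p from 0.0102 to 0.0240), and Hmga1 without each of E12.5 to E16.5 (0.0112 to 0.0182). Without E18.5 the slope of Hmga1 was -0.13 and kept its call. These fits without 1 timepoint used log2(FPKM + 1), which compresses a low transcript such as Lin28b. With all 7 timepoints, log2(FPKM + 0.1) gave Lin28b a slope of -0.41 per day (limma adjusted p = 0.00167). On that scale the slopes of Hmga1, Igf2bp2 and Igf2bp3 were -0.22, -0.18 and -0.17.

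After birth Igf2bp3 had the steepest slope of the 7 genes tested. Per doubling of the days after birth, Igf2bp3 fell by 0.80 ± 0.10 in log2(FPKM + 1) (limma, 8 timepoints, adjusted p = 0.00267), rank 89 of 16902. Igf2bp2 and Hmga1 fell by 0.33 ± 0.04 each, Igf2bp1 by 0.31 ± 0.04, Hmga2 by 0.24 ± 0.04 and Trim71 by 0.12 ± 0.03, with limma adjusted p up to 0.00980. Lin28b, already near 0, had a slope of -0.01 (adjusted p = 0.554). The count was 6 of 7 falling and 16.8% of all genes tested were falling. With median-ratio scaling it was 4 of 7 against 6.61% of all genes: the slopes of Hmga1 (-0.19), Igf2bp2 (-0.20) and Hmga2 (-0.15) were then smaller, and limma no longer called Hmga2 (adjusted p = 0.0173) or Trim71 (0.0106). Neither was called with quantile normalization (limma adjusted p = 0.0673 for Hmga2) or a fixed sum without the 10 highest genes (0.0163 for Hmga2 and 0.0214 for Trim71). The calls rest on few timepoints: limma called 2 of the 7 genes without D3 and 0 without W6 or without W8 (smallest adjusted p 0.0129 and 0.0123), although 6 kept an unadjusted p under 0.05 in both. The order below Igf2bp3 depended on the pseudocount. On the scale log2(FPKM + 0.1) the slopes were -1.11 for Igf2bp3, -0.85 for Igf2bp1 and -0.51 for Trim71. They were -0.35 for Igf2bp2, -0.34 for Hmga1 and -0.33 for Hmga2 on that scale.

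The machinery around let-7 was largely higher in Ph1 as well. Of 21 genes of let-7 processing and action, 17 fell from Ph1 to Ph2 and 4 were not called, with a median of -0.75 in log2(FPKM + 1) against -0.22 for all genes tested. The share of all genes that was lower, 35.1%, is the background for this and the following lists. With median-ratio scaling it was 18.7%, and the list had 13 lower and 2 higher. Hnrnpa1, an RNA-binding protein that binds the let-7a primary transcript, fell by 1.57 ± 0.24 (mean FPKM 839 ± 240 in Ph1 and 285 ± 96.2 in Ph2, limma adjusted p = 0.000131). Zcchc11 (Tut4), which tails let-7 precursors bound by Lin28a, fell by 1.08 ± 0.21 (adjusted p = 0.000706), and Xpo5, the export factor of microRNA precursors, by 1.06 ± 0.15 (adjusted p = 9.19e-05). Zcchc6 (Tut7), the paralog of Zcchc11, had the smallest difference (0.03 ± 0.09, adjusted p = 0.784), and with median-ratio scaling it was higher in Ph2 by 0.29 (adjusted p = 0.00575).

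Of 22 other genes known as let-7 targets, 3 (Igf1r, Insr and Irs2) are also in the next list. Of these 22 genes 20 were tested, and 12 fell from Ph1 to Ph2 while 8 were not called (median -0.51). With median-ratio scaling 8 of the 20 were lower and 12 were not called (median -0.25). Of the 21 with a 3′ UTR in the annotation, 15 held the seed match, against 8.96% of all genes. The list was made of known let-7 targets, so this count is no independent evidence either. Plag1, a zinc-finger activator of Igf2, fell by 1.05 ± 0.17 (mean 4.17 ± 1.13 and 1.50 ± 0.593 FPKM, limma adjusted p = 0.000230), the cyclin Ccnd2 by 0.96 ± 0.14 (adjusted p = 0.000132) and the cell cycle factor E2f5 by 0.91 ± 0.17 (adjusted p = 0.000495). Hras1, a Ras protein, had the smallest difference (-0.09 ± 0.18, adjusted p = 0.677).

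The insulin-like growth factor axis, which the Igf2bp proteins serve, moved both ways: of 16 genes 8 fell, 3 rose and 5 were not called from Ph1 to Ph2 (median -0.56). With median-ratio scaling 6 were lower and 3 higher (median -0.30). Igf2, the fetal growth factor, fell by 2.76 ± 0.64 (mean 942 ± 148 and 222 ± 189 FPKM, limma adjusted p = 0.00192) and its imprinted neighbour H19 fell by 2.56 ± 0.68 (adjusted p = 0.00479). From Ph2 to Ph3 their differences were -4.79 and -5.30 (limma adjusted p of 0.000304 and 0.000257). Igfbp7, a secreted binding protein, rose by 2.35 ± 0.55 to 370 ± 75.4 FPKM in Ph2 (adjusted p = 0.00222), and Igfbp3 had the smallest difference (-0.09 ± 0.13, adjusted p = 0.585).

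Of 8 proteins and mRNAs found with Igf2bp1 in ribonucleoprotein particles, 7 fell and 1 was not called from Ph1 to Ph2 (median -0.85). The RNA helicase Dhx9 fell by 1.05 ± 0.18, and the RNA-binding proteins Hnrnpu and Syncrip fell too, the latter by 0.96 ± 0.14 (limma adjusted p between 9.87e-05 and 0.000264). Actb, an mRNA that Igf2bp1 carries, had a difference of -0.25 ± 0.12 (adjusted p = 0.0741). Among 9 other high mobility group proteins, 6 fell and 3 were not called (median -1.0), led by the chromatin proteins Hmgb3 (-1.59 ± 0.23), Hmgb2 (-1.36 ± 0.19) and Hmgn2 (-1.31 ± 0.21), with limma adjusted p between 9.71e-05 and 0.000208. Hmg20b was the one with the smallest difference (-0.07 ± 0.10, adjusted p = 0.546). With median-ratio scaling 6 of the 8 Igf2bp1 partners and 6 of the 9 high mobility group genes were lower.

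A list of 8 genes held known Trim71 targets and cell cycle inhibitors, of which only some are known to be held down by Hmga2. From Ph1 to Ph2, 2 fell, 2 rose and 4 were not called (median -0.09), and median-ratio scaling gave the same counts. The inhibitor Cdkn2b (p15) rose by 2.37 ± 0.38, from a mean of 3.23 ± 2.35 to 18.9 ± 9.09 FPKM (limma adjusted p = 0.000204), and Cdkn1a (p21), a Trim71 target, by 2.27 ± 0.39, from 36.4 ± 30.5 to 141 ± 20.7 FPKM (adjusted p = 0.000267). Cdkn1c (p57), an imprinted inhibitor, fell by 2.45 ± 0.38 (adjusted p = 0.000166), and Egr1, another Trim71 target, had the smallest difference (-0.07 ± 0.49, adjusted p = 0.910).

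**Figure D5:**
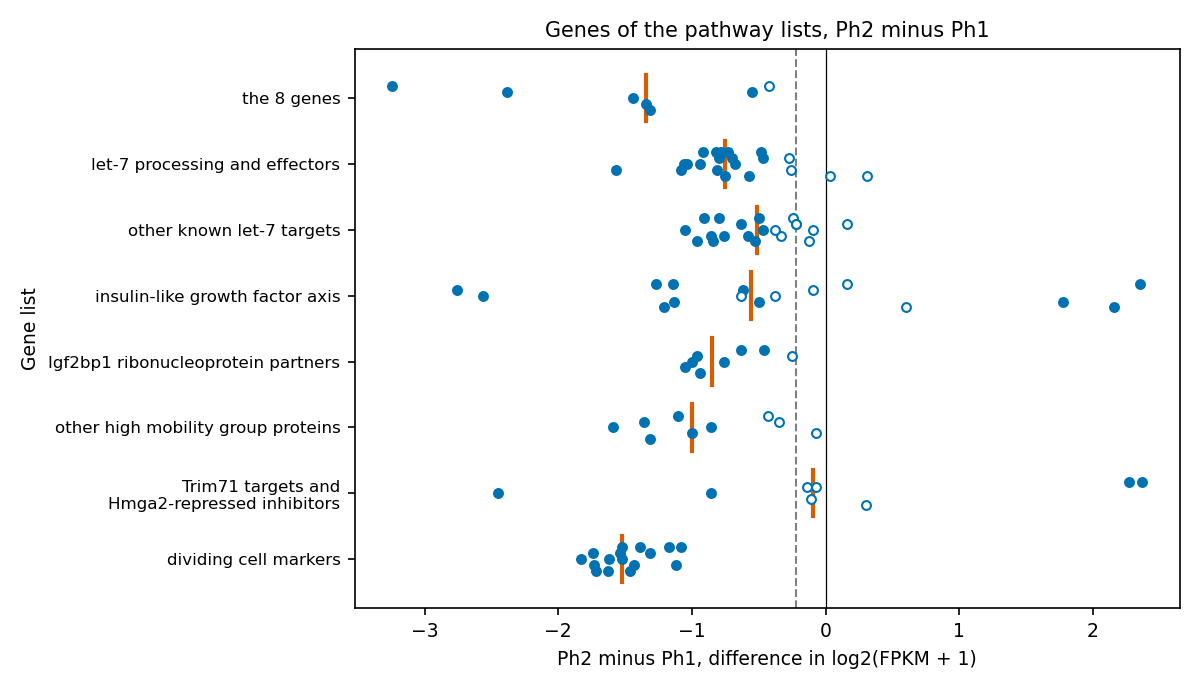
Difference in log2(FPKM + 1) between Ph1 and Ph2 (x axis) for each gene of 8 lists (y axis). Filled points have a limma adjusted p under 0.01, orange bars are list medians and the dashed line is the median of all genes tested (-0.22). The 16 dividing cell markers are all lower in Ph2, and the inhibitors Cdkn1a and Cdkn2b stand on the right.

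All 16 dividing cell markers fell from Ph1 to Ph2 (median -1.52), among them Ccnb1 (-1.83 ± 0.24), Top2a (-1.74 ± 0.25) and Mcm4 (-1.73 ± 0.23), and least of all Pcna (-1.08 ± 0.15) (limma adjusted p between 8.04e-05 and 0.000109). With median-ratio scaling all 16 were still lower (median -1.24). The summed FPKM of these markers went from 1514 at E12.5 to 683 at E18.5 and 224 at W8, falls of 2.22-fold and 6.75-fold. Over the same spans Hmga2 fell 17.8-fold and 130-fold, Igf2bp1 7.42-fold and 687-fold, and Hmga1 2.94-fold and 8.04-fold. Up to E18.5 Trim71 (2.08-fold), Igf2bp2 (2.14-fold) and Igf2bp3 (2.19-fold) fell no more than these markers did, and up to W8 they fell 123-fold, 9.14-fold and 112-fold.

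From Ph2 to Ph3 the lists depended on the scaling. The dividing cell markers had 13 of 16 lower, and with median-ratio scaling limma called 0, with 9 at an unadjusted p under 0.05 and a median of -0.44 against -0.02 for all genes tested. The let-7 machinery went from 15 of 21 lower to 2, the other let-7 targets from 11 of 20 to 4, and the insulin-like growth factor axis from 9 of 16 to 4. Over all genes tested the share lower went from 37.4% to 10.2% under the same change.

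The cells in the tissue also changed with age. All 12 gastric epithelial markers were present, with summed FPKM from 403 at E12.5 to 321489 at W6, as the stomach label requires. Hepatocyte markers, of interest because the methods name liver, summed to between 34.2 FPKM at E12.5 and 2402 at W6. The genes of this list did not move together. From Ph2 to Ph3 Apoa1 rose by 2.84 in log2(FPKM + 1) (limma adjusted p = 0.000606). The other genes of the list were not called in that contrast, with differences between -2.88 (Afp) and 0.42 (Ttr). The D1 library stood apart from its neighbours in the hepatocyte sum (256 FPKM at E18.5, 1394 at D1 and 355 at D3). At D1 Hmga1, Trim71 and the Igf2bp3 share were also higher than at E18.5 and D3. Lower at D1 than at both were Hmga2, Igf2bp2 and the sum of the dividing cell markers (683, 374 and 538 FPKM). The part of these cell types in the D1 values was not tested. Markers of embryonic and definitive erythroid cells, which use Lin28b and Igf2bp genes in the fetus, summed to 3786 FPKM at E12.5, 1583 at E13.5, 157 at E15.5 and 17.4 at E17.5, and Epb4.2 and Rhag of that list stayed below 1 FPKM throughout. From E12.5 to E13.5 that sum fell 2.39-fold, Lin28b 2.69-fold and Hmga2 1.99-fold, whereas Igf2bp1 fell 1.43-fold and the others 1.22-fold or less. Without E12.5, Lin28b had a slope of -0.08 (limma adjusted p = 0.0102) and Hmga2 kept its call, with slopes between -0.66 and -0.61 over all fits that left out 1 timepoint. Enteric nervous system markers summed to between 85.4 and 184 FPKM in Ph1 and between 13.9 and 26.4 in Ph3. The part of these cells in the falls was not tested.

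Genes with a course like that of each member were sought by Pearson r over the 15 timepoints on log2(FPKM + 1), given as a description, since timepoints share age, depth and composition. Closest to Hmga2 were the transcription factor Sox11 (r = 0.996), Phf6 (0.993) and 4930513N10Rik (0.993), and 5.25% of all genes tested reached 0.95 or more. Closest to Lin28b were the homeobox genes Lhx9 (0.983) and Tlx1 (0.974) and the stem cell factor Sall4 (0.968), with E12.5 as the highest timepoint of each. For Igf2bp1 they were Camk1g (0.991), 6030408B16Rik (0.988) and Sept3 (0.988). Igf2bp2 ran closest to Plag1 (0.993), its relative Plagl2 (0.993) and Col11a1 (0.992); Igf2bp3 ran closest to Cwc27 (0.992), R74862 (0.992) and Col9a2 (0.991). Among the genes closest to Hmga1 were 1110038B12Rik (0.993) and Mettl2 (0.993), and Trim71 was matched by the imprinted Rtl1 (0.974), Brinp3 (0.970) and Ppp4r4 (0.968). Among the members, Hmga2 and Igf2bp1 had the highest r with each other (0.983), and Lin28b and Igf2bp3 the lowest (0.621).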

How the data were processed

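Whole-stomach RNA of C57BL/6 mice was sequenced at 15 timepoints, 1 transcriptome each. The authors deposited FPKM per gene entry with confidence bounds. The submitters' processing notes list FastQC, Bowtie 0.12.2 and GRCm38.p2, while the paper's methods name HISAT2, StringTie and GENCODE, and liver as the RNA source where labels and title say stomach. The tables have the layout of Cufflinks with RefSeq-style entries, so the counting step is not settled. Bounds read as Poisson imply between 10.6 and 17.0 fragments per transcriptome in units of 1e6, and cover counting error only.

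Entries of a symbol were summed. The 16902 genes that reached 1 FPKM at some timepoint were tested on log2(FPKM + 1) with limma 3.58.1 in R 4.3.3, with Benjamini-Hochberg adjustment over all genes and a threshold of 0.01. Timepoints served as replicates of a phase. Contrasts were Ph2 minus Ph1 and Ph3 minus Ph2, and slopes were fitted over embryonic days and over log2 days after birth. Single genes and paralog ratios were tested by exact two-sided permutation, with a threshold of 0.05 after adjustment over 5 pairs (Python 3.11.15, SciPy 1.17.1). Scripts were tested on simulated data. Alternatives were other pseudocounts, filters and scalings, leaving out each timepoint and, chosen after seeing the data, chromosome entries alone and a pseudocount of 0.01. Positions count from 1.

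The genes and lists were chosen with earlier results of these data known. Named were the 8 genes, in each list the 3 genes with the largest called difference between Ph1 and Ph2 and the 1 with the smallest, and the 3 genes most correlated with each member. A gene that the rule on similar courses also named is not reported here.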

Additional observations from a re-analysis of the deposited data

Results flagged for a closer look

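Within the 6 timepoints of Ph2, E18.5 stood apart for Lin28a, with 0.0165 FPKM where the other 5 were listed at 0, so that the gap to the nearest value took up the whole range (ratio 1.0). About 0.471 fragments stood behind it if the confidence bounds are Poisson. It was 1 of 16 groups of 6 timepoints examined. With the other 5 values at 0 the ratio is 1.0 whatever the value at E18.5. The usual rate of chance flags, about 1 in 20, therefore does not apply to it.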

How the results depend on the processing

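Over 144 recomputed counts of called members, 141 stayed within 1.5 times the main value. The exceptions were slopes after birth, where leaving out 1 timepoint gave between 0 and 6 of 7 genes falling (2 without D3, 0 without W6 and 0 without W8, limma, 6 at an unadjusted p under 0.05 in the last 2). Other counts ranged over these omissions from 6 to 7 across the phases, 6 to 7 for Ph2 minus Ph1, 2 to 3 for Ph3 minus Ph2, 4 to 6 for the embryonic slope and stayed at 8 for the permutation test. Of 852 recomputed values of single genes, 52 lost their call, 9 gained one and 0 changed direction.

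With a pseudocount of 0.01 the Lin28b/Lin28a ratio lost its call, with a slope of -0.19 and a difference of -1.02. The Igf2bp1/Igf2bp3 difference gained one with pseudocounts of 0.1 (-1.38) and 0.01 (-2.03). For Ph3 minus Ph2, median-ratio scaling left 2 let-7 processing genes lower, 4 other let-7 targets, 4 of the insulin-like growth factor axis, 0 of the 8 Igf2bp1 partners (0 at an unadjusted p under 0.05, limma), 4 other high mobility group genes, 1 Trim71 target or inhibitor and 0 dividing cell markers. A fixed sum without the 10 highest genes left 2, 1 and 8 of the last, Igf2bp1 partners first, where the main counts were 5, 2 and 13.

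Over all genes, the count lower from Ph2 to Ph3 was 6328, and 1716 with median-ratio scaling, 1293 with quantile normalization and 2842 without W6. From Ph1 to Ph2 it was 5935, and 3158 with median-ratio scaling. Falling embryonic slopes numbered 4228, and 2796, 2669 and 2633 without E12.5, E13.5 and E18.5. Falling slopes after birth numbered 2834, and 587 without a filter, 546 with the filter and pseudocount at 0.1, 1118 with median-ratio scaling, 1085 with quantile normalization and 662 with the fixed sum. Without 1 timepoint they ranged from 39 (without W6) to 4172. The cause was not tested. No paired analysis was possible because each timepoint has 1 transcriptome and the labels give no replicate numbers. With no replicates, change with age adds to the spread inside each phase, and below about 1 FPKM depth limits the values.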
